A study of Homo sapiens with 6 samples.

Results

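The comparison described here set cells that carried the second guide RNA against CPT1 (sg2, 2 libraries) beside cells with a nontargeting guide (sgNTG, 2 libraries), out of 6 libraries in the series. The other 2 libraries came from cells with the first CPT1 guide (sg1) and served as a reference for the spread and for differences between the guides. The genes were all those with a mean of at least 1 FPKM (sequenced fragments scaled for transcript length and library size) over the 6 libraries, which left 8887 of the 52787 distinct rows in the table used here. All cells were NCI-H460, a long-established line grown from a human large cell carcinoma of the lung and wild type by its labels, and all had been infected with a lentivirus that expresses a catalytically dead SpCas9 fused to the KRAB repressor domain together with 1 guide. Puromycin at 2 μg/ml was applied from 48 h after infection in every group, so the controls carried the repressor and the selection too. The labels name the target as CPT1 without an isoform, give no time of harvest and leave unsaid if libraries of the same guide stem from separate infections or cultures. The p-values therefore rest on a spread between libraries that may be technical.

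CPT1 enzymes sit on the outer mitochondrial membrane and join long-chain fatty acids to carnitine, the step at which their entry into mitochondria for beta-oxidation is controlled. Inside, CPT2 returns the fatty acid to coenzyme A, and beta-oxidation then yields acetyl-CoA and reduced carriers that feed the respiratory chain. In CRISPR interference the KRAB domain brings silencing chromatin to the guided site and lowers transcription without cutting DNA, so the level of the targeted transcript is the usual check of a guide. The CPT1 isoforms were not analysed here, and the strength of the knockdown is therefore not given.

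Both sg2 libraries were alike at the level of all genes. Their log2(FPKM + 1) values correlated across genes at Pearson r = 0.9923, the sgNTG pair at 0.9914, and the 4 sg2 to sgNTG pairs at 0.9893 to 0.9912 (a description across genes, which are not independent). The listed values summed to 251704 to 260499 FPKM per library. Absolute depth is unknown. Judged by the smallest value shared among very short genes of equal length, sgNTG replicate 2 was deepest, sgNTG replicate 1 had 0.853 of its depth, the sg2 libraries 0.932 and 0.906, and the sg1 libraries 0.936 and 0.972. Of 3 listed epithelial markers, KRT18 read 87.4 to 101.5 FPKM and KRT19 140.5 to 179 over the 6 libraries, while the epithelial cadherin CDH1 was at or below 0.105 FPKM in each. The mesenchymal filament gene VIM read 628 to 696 FPKM and the fibroblast-list gene LUM 44.6 to 49.7, whereas of the leukocyte list LYZ stayed at or below 0.212 and CD68, a lysosomal membrane protein gene, read 21.5 to 26.5. Of the 4 fibroblast-list genes 2 were in the table used here, and only LUM reached a mean of 1 FPKM. None of the 3 lung epithelium markers in it did.

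Few genes separated sg2 from the nontargeting guide by the test. The median absolute difference over all tested genes was 0.0773 on the log2(FPKM + 1) scale, beside a median within-group SD of 0.0632 for sg2 and 0.0619 for sgNTG. In limma's fit over all 6 libraries, 1 gene rose with sg2 and 1 fell at a Benjamini-Hochberg adjusted p under 0.05, which is 0.0113% of the tested genes in each direction. Without adjustment, 439 genes (4.94%) were higher and 415 (4.67%) lower at a p under 0.05. Both sg2 libraries lay above both sgNTG libraries for 1985 genes (22.3%) and below them for 1666 (18.7%). With sg1 and the same control libraries, the corresponding counts were 1974 (22.2%) and 1676 (18.9%), and at an unadjusted p under 0.05 they were 522 (5.87%) and 360 (4.05%). A difference of at least 0.25 was measured for 797 genes (8.97%), of at least 0.5 for 132 (1.49%) and of at least 1 for 30 (0.338%).

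**Figure D1:**
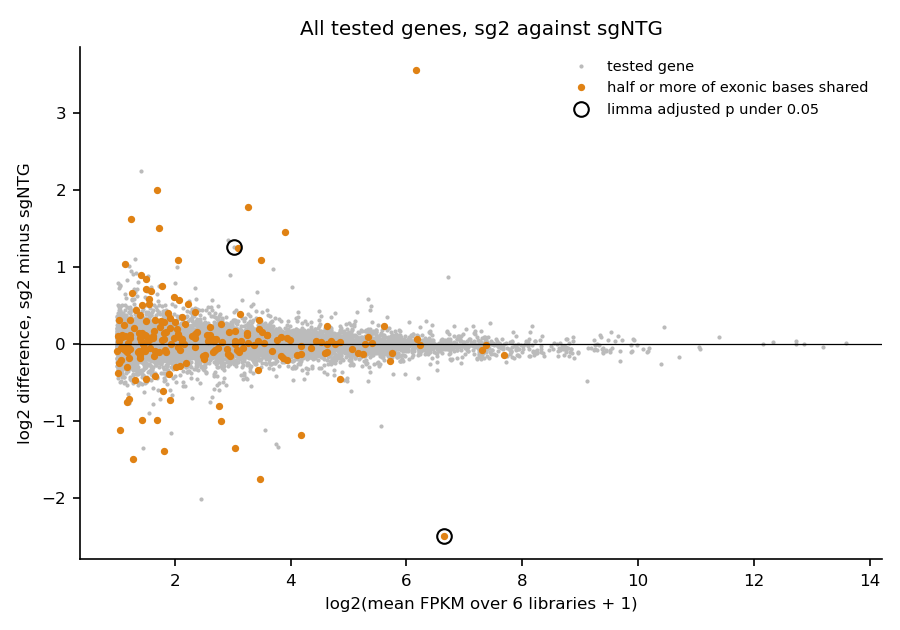
Each point is 1 of 8887 tested genes, with log2(mean FPKM over 6 libraries + 1) on the horizontal axis and the log2 difference of sg2 minus sgNTG on the vertical axis. Orange points are genes that share at least 50% of their exonic bases with another gene on the same strand, and circles mark the 2 genes past a limma adjusted p of 0.05; 18 of the 26 annotated genes beyond a difference of 1 are orange.

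The gene that rose was RN7SL2, a copy of 7SL, the RNA scaffold of the signal recognition particle, which brings ribosomes that make secreted and membrane proteins to the endoplasmic reticulum. It lies on the minus strand of chromosome 14 (hg38, GENCODE 29) and is a single-exon noncoding gene. A second copy on the same chromosome, RN7SL1, on the plus strand, has the same base at 295 of 300 aligned positions (98.3%). Reads from the copies can be split between them. RN7SL2 read 2.74 and 2.96 FPKM with sgNTG and 7.42 and 9.03 FPKM with sg2, without overlap (log2 difference 1.26, SE 0.0971, limma adjusted p = 0.0376). RN7SL1 read 3.04 and 3.71 FPKM with sgNTG and 10.1 and 8.66 with sg2, also without overlap, but did not pass (1.25, SE 0.172, limma adjusted p = 0.134). With sg1 RN7SL2 read 10.6 and 10.2 FPKM, and the guides were not separated by the test (limma adjusted p = 0.189 for sg2 against sg1). RNA polymerase III makes 7SL without a long poly(A) tail, while these libraries were built from bead-captured mRNA. Of the 14 polymerase III transcripts listed, 4 reached 1 FPKM. The other 2 were RN7SL3, at 0.576 and 0.394 FPKM with sgNTG and 0.731 and 1.57 with sg2, and the pseudogene RN7SL81P, which ran the other way at 4.2 and 4.57 against 3.02 and 3.1 FPKM (log2 difference -0.41, limma adjusted p = 0.292).

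SRP54, the subunit of the same particle that binds signal sequences, was among the 12 genes of lowest p on the higher side. It read 29.5 and 30.5 FPKM with sgNTG, 36.9 and 37.4 with sg2 and 33.4 and 33.0 with sg1 (log2 difference 0.30, SE 0.042, limma adjusted p = 0.134). The sg2 libraries lay above the sgNTG libraries by more than either pair's own spread. The other 4 tested protein subunits, looked up after these values were seen, differed by 0.0009 to 0.0646 on the log2 scale. SRP9 read 136.8 and 143.5 FPKM with sgNTG and 140.6 and 140.7 with sg2, and SRP14 read 88.97 and 74.99 against 82.9 and 80.6 FPKM, both with overlap. SRP68 read 27.3 and 26.8 against 27.6 and 28.4 FPKM, higher without overlap, and SRP72 37.7 and 37.8 against 37.5 and 41.7, with overlap.

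The gene that fell was ENSG00000285976, a protein-coding gene of GENCODE 29 without a symbol in the table, at chr6:63572012-63583587 on the plus strand. It read 163 and 157 FPKM with sgNTG and 23.1 and 33.2 FPKM with sg2 (log2 scale difference -2.49 with SE 0.172, limma adjusted p = 0.0376). The sg1 libraries lay between, at 124 and 98.5 FPKM, and the guides differed (limma adjusted p = 0.0133). The annotation places it over the end of PTP4A1 (chr6:63521746-63583377, plus strand), which encodes the protein tyrosine phosphatase PRL-1: 4170 exonic bases belong to both, 82.0% of those of ENSG00000285976 and 79.0% of those of PTP4A1. PTP4A1 read 6.52 and 19.98 FPKM with sgNTG and 153 and 139.6 with sg2, the largest difference of any tested gene (3.55, SE 0.488, limma adjusted p = 0.134). Added together, the 2 genes reached 169 and 177 FPKM under sgNTG, 176 and 173 under sg2, and 161 and 168 under sg1. The sg2 sums lay within the sgNTG range, so the pair's total did not separate sg2 from sgNTG while its split did. Both sg1 sums lay below those of the other groups. Neither call stood without sgNTG replicate 1 (limma adjusted p = 0.198 for both genes), without sgNTG replicate 2 (0.0984 for RN7SL2 and 0.0884 for ENSG00000285976) or with either sg1 library left out of the spread (0.0694 to 0.102), and RN7SL2 was also lost without sg2 replicate 2 (0.0906). Both were lost too with no filter on low values (limma adjusted p = 0.384), with no variance trend (0.155) and with only the 4 libraries compared (0.105 for RN7SL2, 0.0695 for ENSG00000285976).

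**Figure D2:**
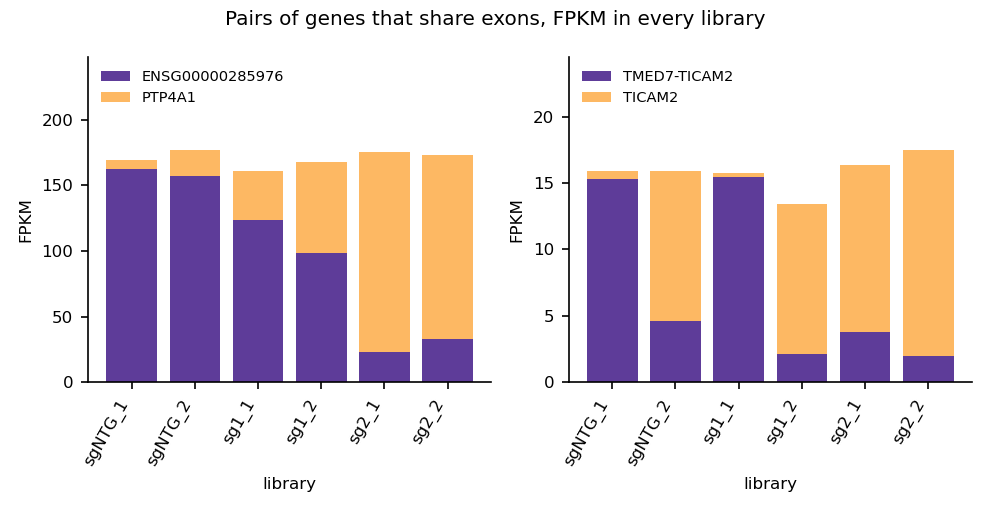
Stacked bars give the FPKM of 2 pairs of same-strand genes that share exons, in each of the 6 libraries: ENSG00000285976 with PTP4A1 on the left, TMED7-TICAM2 with TICAM2 on the right. The totals on the left run from 161 to 177 FPKM while the lower segment runs from 23.1 to 163; on the right the split also differs between the 2 sgNTG libraries.

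Shared exons went with most of the large differences. Of the 26 genes with an annotation and a difference of at least 1, 18 (69.2%) shared at least 50% of their exonic bases with another gene on their strand, against 204 of 8657 (2.36%) over all annotated tested genes. Among genes of at least 10 FPKM the figures were 6 of 8 (75%) and 46 of 3183 (1.45%). TICAM2, an adaptor of Toll-like receptor signalling, read 0.557 and 11.2 FPKM in the 2 sgNTG libraries and 12.6 and 15.5 with sg2, and the readthrough gene TMED7-TICAM2 read 15.3 and 4.64 against 3.75 and 1.97. That pair summed to 15.9 and 15.9 FPKM with sgNTG and 16.4 and 17.5 with sg2, so here the assignment already differed between libraries of the same guide. RPL17-C18orf32, a readthrough gene with all of its exonic bases shared, read 16.4 and 12.6 FPKM with sgNTG and 6.16 and 1.92 with sg2 (log2 difference -1.75, limma adjusted p = 0.311). ZC3H11A, an mRNA export factor whose exons overlap those of the transposon-derived repressor ZBED6, read 10.3 and 4.85 against 15.0 and 17.6 FPKM (1.09, limma adjusted p = 0.370). Its sum with ZBED6 also differed, at 46.4 and 45.6 FPKM with sgNTG and 50.7 and 51.7 with sg2. The remaining large differences at 10 FPKM or more by the rule for named genes were ENSG00000258790, which shares 97.9% of its exonic bases (3.55 and 5.42 against 19.1 and 9.94 FPKM), and RPL30-AS1, an antisense RNA of a ribosomal protein gene (19.1 and 24.5 against 7.74 and 8.26). The strand setting of the counting is not given in the sources used here, and reads of RPL30-AS1 and its sense partner may not have been told apart.

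Apart from these loci and 1 pseudogene, the genes of lowest p had differences of modest size in small spread. The pseudogene, ENSG00000219529, shares 90.2% of its exonic bases with RSF1. It read 0.646 and 0.425 FPKM with sgNTG and 2.39 and 1.93 with sg2 (log2 difference 1.04, limma adjusted p = 0.134). TXNIP, which binds and inhibits thioredoxin and limits glucose uptake, is induced by sugar metabolites through the factor MondoA or ChREBP at carbohydrate response elements. It read 57.2 and 59.0 FPKM with sgNTG and 44.2 and 44.3 FPKM with sg2, 23.9% lower in the mean and without overlap (log2 difference -0.39, SE 0.0376, limma adjusted p = 0.102). With sg1 it read 58.7 and 59.0 FPKM, and the guides differed (limma adjusted p = 0.0158). The promoter is shown because it holds a carbohydrate response element in its last 250 bases, that is CACGNG repeated after 5 bases of any kind, searched on both strands, which 16 of 35116 RefSeq promoters of that length hold (0.0456%). Capitals mark the match at position -88, counted back from the transcription start (chr1:145996580-145996829, minus strand, RefSeq, GRCh38.p14).
TXNIP: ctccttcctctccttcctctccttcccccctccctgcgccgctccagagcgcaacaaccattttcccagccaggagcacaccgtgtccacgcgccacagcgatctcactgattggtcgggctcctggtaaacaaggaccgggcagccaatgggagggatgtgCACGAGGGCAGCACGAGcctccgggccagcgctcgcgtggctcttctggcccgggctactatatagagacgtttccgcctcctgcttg
ARRDC4, the TXNIP relative that answers to the same factors, read 13.2 and 13.4 FPKM with sgNTG and 13.5 and 13.5 with sg2 (log2 difference 0.03, limma adjusted p = 0.904). PDK4, the kinase that shuts off pyruvate dehydrogenase when fat is burnt, read 80.3 and 82.0 against 86.7 and 85.5 FPKM (0.08, limma adjusted p = 0.550), and 69.5 and 72.6 with sg1, where the guides differed (limma adjusted p = 0.0380). Over the 5 tested fuel-sensing genes, TXNIP was the 1 gene under an unadjusted p of 0.05.

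Genes of the carnitine shuttle and of beta-oxidation themselves showed no gene past the test. Of 12 tested members of 26 listed, 1 (8.33%) was higher without overlap and 2 (16.7%) were lower, beside 22.3% and 18.7% over all genes. The median difference was -0.0038, beside 0.0062 over all genes and -0.0488 without sgNTG replicate 2. CPT2, the inner-membrane partner of CPT1, read 6.25 and 5.45 FPKM with sgNTG and 5.28 and 5.35 with sg2 (log2 scale difference -0.11 with SE 0.0841, limma adjusted p = 0.715). The carnitine-acylcarnitine carrier SLC25A20 read 5.13 and 5.28 against 5.39 and 4.88 FPKM, with overlap. ECHS1, the short-chain enoyl-CoA hydratase, was the 1 member under an unadjusted p of 0.05, at 32.7 and 33.1 against 28.98 and 30.2 FPKM (-0.15, limma adjusted p = 0.404). The 6 tested genes of fatty acid synthesis had a median of -0.0206 with none under an unadjusted p of 0.05, and the 8 of glycolysis a median of 0.0056.

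ATP synthase had 11 of 12 tested subunits below 0 (median -0.13) and 6 (50%) lower without overlap, none higher, beside 18.7% lower and 22.3% higher over all genes. Without sg2 replicate 2 that median was -0.0397. ATP5MG, a membrane subunit of that enzyme, read 35.6 and 33.8 FPKM with sgNTG and 24.5 and 25.1 with sg2 (log2 scale difference -0.47 with SE 0.0646, limma adjusted p = 0.134), and 30.1 and 26.9 with sg1. ATP5F1D, of the central stalk, read 14.4 and 13.4 against 10.9 and 9.41 FPKM (-0.42, limma adjusted p = 0.270). For both genes the 4 libraries of sg2 and sgNTG did not overlap. Complex I had 19 of 21 below 0 (median -0.062, and -0.107 without sgNTG replicate 2), with 9 (42.9%) lower without overlap and none higher, NDUFB2 at 19.0 and 18.6 against 15.2 and 14.3 FPKM among them. Complexes II to IV had 11 of 17 below 0 (median -0.0206, and -0.051 without sg2 replicate 2). The mitochondrial ribosomal proteins had 33 of 46 below 0 (median -0.0528, and -0.0262 without sg2 replicate 1).

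Iron-sulfur cluster assembly builds the redox centres of the respiratory chain and of lipoate synthesis. BOLA3, which hands clusters to mitochondrial enzymes, read 18.1 and 17.7 FPKM with sgNTG and 12.9 and 12.5 with sg2, 28.9% lower in the mean (log2 difference -0.46, SE 0.0503, limma adjusted p = 0.105). With sg1 it read 16.1 and 16.1 FPKM, also below both control libraries, and the guides differed (limma adjusted p = 0.049). Of the 7 tested members of that list 6 were below 0, with a median of -0.163 that ran from -0.427 without sg2 replicate 1 to -0.0925 without sgNTG replicate 2. Of the 7, 2 (28.6%, beside 18.7% over all genes) were lower without overlap, BOLA3 and the ferredoxin reductase FDXR (4.98 and 4.08 against 3.97 and 3.1 FPKM, limma adjusted p = 0.533).

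Cytosolic ribosomal protein genes lay lower with sg2 in most members, by differences of -0.385 to 0.119. Of 44 tested members of 80 listed, 41 were below 0 and 31 (70.5%, beside 18.7% over all genes) were lower without overlap, none higher, with a median of -0.0986 that was -0.0634 after quantile normalization. At an unadjusted p under 0.05, 19 (43.2%, beside 4.67%) were lower, and no member passed after adjustment over all genes. RPL23A read 219 and 219 FPKM with sgNTG, 187 and 184 with sg2 and 229 and 223 with sg1 (log2 difference -0.24, SE 0.0298, limma adjusted p = 0.110). RPS21 read 163 and 160.2 against 142 and 142 FPKM (-0.18, limma adjusted p = 0.229) and RPL41, which encodes a very small basic protein, 287 and 282 against 254 and 254 (-0.16, limma adjusted p = 0.218). In each of these genes the sg2 pair lay below both other pairs. With sg1 the same 44 genes had a median of 0.0853, and 10 of them were lower with sg2 than with sg1 in limma's test of that difference, with none higher (over all tested genes 69, or 0.776%, were lower and 46, or 0.518%, higher). The pseudogenes named after ribosomal proteins, which share sequence with these mRNAs and so may share reads, had a median of -0.0765 with sg2 and 0.0934 with sg1. Of these 195, 88 (45.1%) were lower with sg2 and 14 (7.18%) higher without overlap. The shares were 18.7% and 22.3% over all genes, and 28.5% and 14.2% over all pseudogenes. The pseudogenes ENSG00000241494 (7.34 and 7.19 against 4.83 and 4.57 FPKM, log2 difference -0.54) and ENSG00000218227 (35.5 and 30.7 against 22.6 and 24.0, -0.49) were among the 12 genes of lowest p on the lower side.

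Differences also followed transcript length, in opposite directions for the 2 guides. Among protein-coding genes ordered by their longest transcript, the 675 shortest (217 to 1610 nt) had a median difference of -0.0345 with sg2 and 0.0316 with sg1. The 674 longest (7981 to 34526 nt) had 0.0280 with sg2 and -0.0417 with sg1. The share of genes lower with sg2 without overlap went from 26.4% in the shortest group to 12.9% in the longest, and the share higher from 13.6% to 29.5%. Many ribosomal protein, ATP synthase and complex I mRNAs are short. The length used was that of the longest annotated transcript, which was 7072 nt for RPL14 and 11819 nt for NDUFS1. Such members fall outside the short groups, and the removal of trends treats them as long. At 50 FPKM or more the 161 protein-coding genes of at most 2177 nt that encode no ribosomal protein still had a median of -0.0335. Of these 161, 61 (37.9%) were lower and 23 (14.3%) higher without overlap, beside 18.7% and 22.3% over all genes. The shares given for lists of short, abundant mRNAs are to be read beside these. With trends on GC content and length removed from the values, the median was -0.0861 for the ribosomal protein list, -0.128 for ATP synthase, -0.0538 for complex I and -0.0416 for the mitochondrial ribosomal proteins. For the NRF2 targets it was -0.0712.

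**Figure D3:**
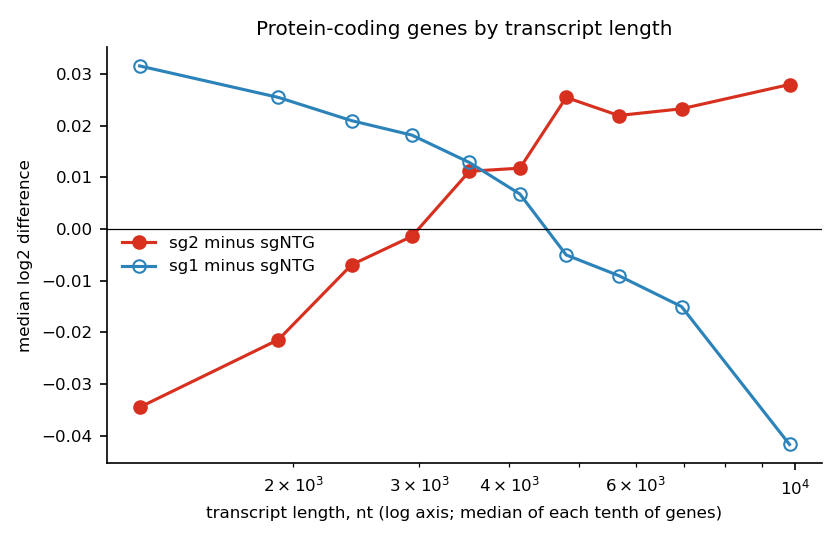
Median log2 difference from sgNTG of protein-coding genes in 10 equal groups by transcript length (horizontal log axis, nt), filled red for sg2 and open blue for sg1. The sg2 medians go from -0.0345 in the shortest group to 0.0280 in the longest, and the sg1 medians from 0.0316 to -0.0417; both use the same 2 sgNTG libraries.

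Genes of redox defence under the factor NRF2, which is constitutively active in some lung cancer lines, lay lower in most members. Of 17 tested members, 10 (58.8%, beside 18.7% over all genes) were lower and 1 higher without overlap, and 8 (47.1%, beside 4.67%) were lower at an unadjusted p under 0.05. The median was -0.0778, and -0.0518 after quantile normalization. TXN, thioredoxin itself, read 465 and 468 FPKM with sgNTG and 416 and 421 with sg2 (log2 scale difference -0.16 with SE 0.0245, limma adjusted p = 0.201), with 454 and 449 in the sg1 libraries. AKR1B10, an aldo-keto reductase that clears lipid aldehydes, read 459 and 468 against 417 and 401 FPKM (-0.18, limma adjusted p = 0.218). It read 541 and 552 with sg1, so the guides lay on opposite sides of the control and differed (limma adjusted p = 0.00926). EPHX1, the microsomal epoxide hydrolase, had the same pattern at 112 and 115 with sgNTG, 102 and 97.6 with sg2, and 136 and 131 with sg1. NQO1, a quinone reductase, read 524 and 507 against 479 and 476 FPKM (-0.11, limma adjusted p = 0.346). FTH1, the ferritin heavy chain, had the lowest difference in the list at -0.47, which rested on 1 sgNTG library at 837 FPKM, since the other read 523 beside 485 and 468 with sg2.

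Plasmin dissolves fibrin and matrix, and tumour cells secrete both its activators and its inhibitors. TFPI2, a matrix-bound inhibitor of plasmin and other serine proteases, read 1371 and 1396 FPKM with sgNTG, 1620 and 1611 with sg2 and 1190 and 1221 with sg1 (log2 difference 0.22, SE 0.0236, limma adjusted p = 0.105). PLAT, tissue plasminogen activator, read 171 and 178 against 204 and 216 FPKM (0.27, limma adjusted p = 0.218), and 138 and 131 with sg1. In both genes the 3 groups did not overlap, sg2 was highest and sg1 lowest, and the guides differed (limma adjusted p = 0.00645 and 0.00926). PLAUR, the receptor that holds urokinase at the cell surface, read 231 and 236 against 253 and 247 FPKM (0.10, limma adjusted p = 0.406), without overlap. Of the 5 tested members of the plasminogen list 4 (80%) were higher without overlap and at an unadjusted p under 0.05, beside 22.3% and 4.94% over all genes, with a median of 0.224, while S100A10, at 262 to 266 FPKM in these libraries, overlapped.

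STC1, a secreted glycoprotein hormone, read 281 and 287 FPKM with sgNTG, 332 and 334 with sg2 and 237 and 241 with sg1 (log2 difference 0.23, SE 0.0277, limma adjusted p = 0.105). PAEP, the lipocalin glycodelin, read 40.2 and 35.6 against 54.1 and 53 FPKM (0.49, SE 0.0669, limma adjusted p = 0.134), and 32.2 and 30.2 with sg1. CEMIP, which takes part in the breakdown of hyaluronan, read 33.5 and 32.1 against 45.1 and 43.2 FPKM (0.42, SE 0.0467, limma adjusted p = 0.105), and 26.9 and 26.4 with sg1. For all 3 genes the guides lay on either side of the control pair without overlap and differed (limma adjusted p = 0.00645, 0.0133 and 0.00926). The mesenchymal and matrix list, to which CEMIP belongs, had 9 of 13 members (69.2%, beside 22.3% over all genes) higher without overlap and none lower. Its median was 0.0937 with sg2, 0.143 without sgNTG replicate 1, 0.0614 without sgNTG replicate 2, and -0.0172 with sg1. ITGA5, the fibronectin receptor subunit, read 36.5 and 37.0 against 41.8 and 41.2 FPKM (0.17, limma adjusted p = 0.322), and its ligand FN1 1019 and 1039 against 1016 and 1021, with overlap.

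NF-kB is a family of dimeric transcription factors that switch on inflammatory genes and survival genes. Of the 15 tested members of the NF-kB and inflammatory list, 10 (66.7%, beside 22.3% over all genes) were higher without overlap and none lower, with a median of 0.0766 (0.0170 with sg1). At an unadjusted p under 0.05 were 5 (33.3%, beside 4.94%), all higher. PTGS2, the inducible cyclooxygenase of prostaglandin synthesis, read 70.9 and 72.9 FPKM with sgNTG, 88.0 and 89.0 with sg2 and 77.2 and 79.0 with sg1 (log2 difference 0.30, SE 0.0357, limma adjusted p = 0.105). The cytokine IL6 read 264 and 263 against 294 and 293 FPKM (0.16, SE 0.0258, limma adjusted p = 0.218), with sg1 between them at 285 and 283. BIRC3, an inhibitor of apoptosis and of the alternative NF-kB route, read 20.2 and 21.2 against 27.0 and 26.9 FPKM (0.36, SE 0.08, limma adjusted p = 0.311), and 16.8 and 19.8 with sg1, where the guides differed (limma adjusted p = 0.0442). The adhesion molecule ICAM1 read 5.06 and 4.81 against 6.98 and 6.25 FPKM (0.36, limma adjusted p = 0.355). NFKB1, which encodes a subunit of the factor, read 8.55 and 8.06 against 8.09 and 7.56 FPKM, with overlap.
The promoters of BIRC3 and IL6 are shown because each holds the NF-kB consensus, searched by name on both strands, within 250 bases before the start. A match, marked by capitals, stands in at least 1 promoter of 7 of the 12 list members with a promoter sequence. Counted per promoter rather than per gene, it stands in 9.96% of all 35116 RefSeq promoters of that length. The windows are chr11:102317234-102317483 (plus strand) for BIRC3, with matches starting at -199 and -135, and chr7:22726950-22727199 (plus strand) for IL6, with 1 match at -73 (RefSeq, GRCh38.p14).
BIRC3: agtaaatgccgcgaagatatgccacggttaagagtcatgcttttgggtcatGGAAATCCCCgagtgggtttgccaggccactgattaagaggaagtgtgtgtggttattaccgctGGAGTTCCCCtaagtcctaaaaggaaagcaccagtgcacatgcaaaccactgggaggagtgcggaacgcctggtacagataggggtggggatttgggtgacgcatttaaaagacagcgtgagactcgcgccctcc
IL6: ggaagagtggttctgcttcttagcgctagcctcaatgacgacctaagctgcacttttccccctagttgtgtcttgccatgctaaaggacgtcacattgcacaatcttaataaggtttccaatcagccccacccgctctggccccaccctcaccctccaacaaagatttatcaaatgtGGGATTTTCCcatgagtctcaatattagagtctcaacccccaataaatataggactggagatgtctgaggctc

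**Figure D4:**
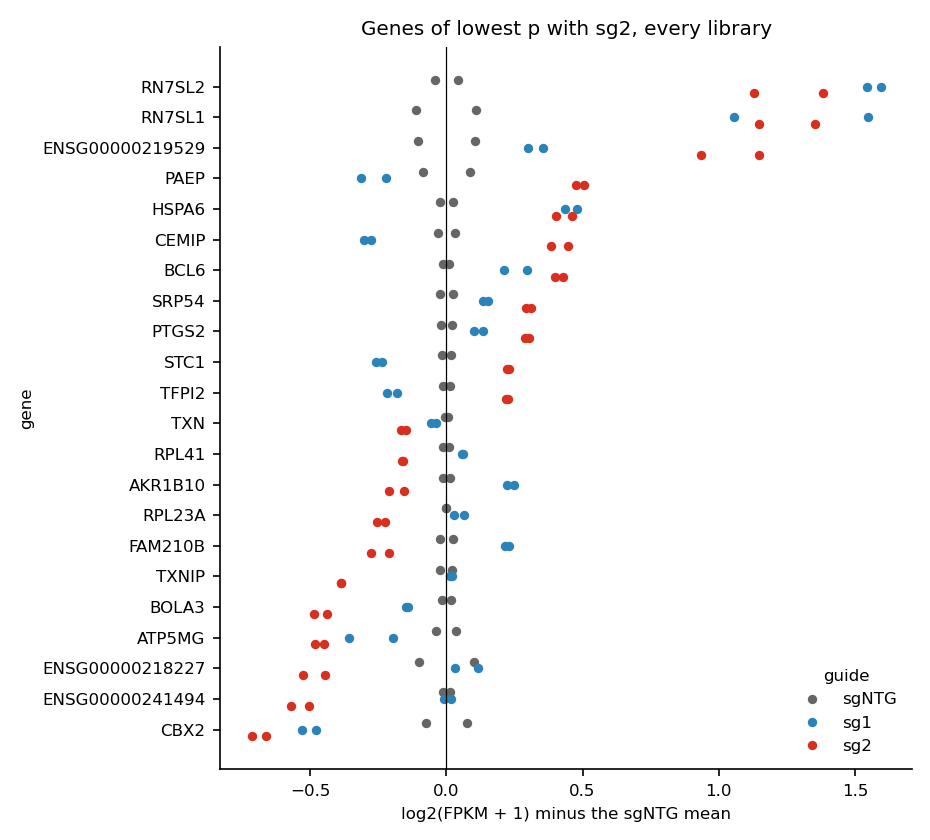
Each row is 1 of 22 genes, the 12 of lowest p in each direction without PTP4A1 and ENSG00000285976, and each dot 1 library, as log2(FPKM + 1) minus the mean of the 2 sgNTG libraries. The 2 sg2 dots (red) lie apart from the 2 sgNTG dots (grey) in every row, and the sg1 dots (blue) lie on the other side of sgNTG for PAEP, CEMIP, STC1, TFPI2, AKR1B10 and FAM210B, among others.

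Heat shock genes were led by HSPA6, a strictly inducible HSP70 that human cells carry and mice lack. It read 16.8 and 17.4 FPKM with sgNTG, 23.9 and 22.9 with sg2 and 24.2 and 23.4 with sg1 (log2 difference 0.43, SE 0.0502, limma adjusted p = 0.105), so both guides stood above the control and overlapped each other. Its promoter (chr1:161524290-161524539, plus strand, RefSeq, GRCh38.p14) is shown because it holds a heat shock element, that is GAA, TTC and GAA with 2 bases of any kind between neighbours, searched on both strands. The element stands in at least 1 promoter of 4 of 12 list members with a promoter sequence. Counted per promoter rather than per gene, it stands in 155 of 35116 (0.441%). Capitals mark the match at -74.
HSPA6: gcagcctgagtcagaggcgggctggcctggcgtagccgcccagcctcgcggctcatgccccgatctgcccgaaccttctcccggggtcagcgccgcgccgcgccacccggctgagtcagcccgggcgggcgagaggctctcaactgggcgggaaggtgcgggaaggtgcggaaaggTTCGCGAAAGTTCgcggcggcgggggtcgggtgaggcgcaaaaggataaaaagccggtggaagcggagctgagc
HSPH1, a nucleotide exchange factor for HSP70, read 45.5 and 46.5 against 51.9 and 52.4 FPKM (0.18, limma adjusted p = 0.292). HSPA1A read 114 and 113 against 128 and 121 FPKM (0.13, limma adjusted p = 0.397) and its near-identical neighbour HSPA1B 106.8 and 109 against 118 and 114, and reads can be split between them. Of 13 tested members, 6 (46.2%) were higher and 3 (23.1%) lower without overlap, beside 22.3% and 18.7% over all genes. The median was 0.0628, or 0.103 after quantile normalization and 0.0407 without sg2 replicate 1, and 0.127 with sg1. DUSP6, a phosphatase that dampens ERK signalling, led the immediate early genes at 69.7 and 69.9 against 81.8 and 81.6 FPKM (0.22, SE 0.0329, limma adjusted p = 0.157). That list as a whole had 5 of 17 (29.4%) higher and 3 (17.6%) lower without overlap, near the shares over all genes.

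Of single regulators, CBX2, the Polycomb subunit that reads methylated histone H3, had the largest difference among the genes of lowest p that share no exons on the lower side. It read 7.51 and 6.66 FPKM with sgNTG, 4.1 and 3.92 with sg2 and 4.6 and 4.8 with sg1 (log2 difference -0.69, SE 0.0802, limma adjusted p = 0.105), both guides below the control without overlap. The 11 tested Polycomb subunits, CBX2 included, had a median of 0.042, or 0.0029 without sg2 replicate 1. Of them 2 (18.2%) were lower and 3 (27.3%) higher without overlap, beside 18.7% and 22.3% over all genes. BCL6, a transcriptional repressor, read 13.9 and 13.7 FPKM with sgNTG, 19.0 and 18.6 with sg2 and 17.2 and 16.2 with sg1 (0.41, SE 0.0536, limma adjusted p = 0.127). FAM210B, a mitochondrial membrane protein, read 119.5 and 123 against 105 and 100.2 FPKM (-0.24, limma adjusted p = 0.194), and 143 and 141 with sg1. The guides lay on either side of the control for FAM210B and differed (limma adjusted p = 0.0133).

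Cell division and DNA replication genes serve as markers of how many cells are cycling. Of 14 tested mitotic genes, 13 were below 0 and 9 (64.3%, beside 18.7% over all genes) lower without overlap (median -0.113, and 0.0220 with sg1), and 2 were under an unadjusted p of 0.05. BIRC5, survivin, read 14.7 and 14.8 against 13.5 and 11.5 FPKM (-0.23, limma adjusted p = 0.446). The 14 replication and S phase genes had 9 below 0, with 5 (35.7%) lower and 2 (14.3%) higher without overlap, beside 18.7% and 22.3% over all genes. Their median was -0.0902, and 0.0780 with sg1, and ran from -0.143 without sg2 replicate 1 to -0.0314 without sg2 replicate 2. Among them PCNA, the sliding clamp of DNA polymerases, read 33.4 and 35.3 against 29.2 and 28.0 FPKM (-0.26, limma adjusted p = 0.270), with 35.3 and 35.7 in the sg1 libraries and a difference between the guides (limma adjusted p = 0.0497). CCNE1, the cyclin of entry into S phase, read 4.2 and 3.3 against 4.83 and 4.29 FPKM, higher without overlap (0.23, limma adjusted p = 0.630). The p53 list had 5 of 11 (45.5%) higher and 2 (18.2%) lower without overlap, beside 22.3% and 18.7% over all genes. Its median was 0.0741, with 0.0263 without sg2 replicate 1 and 0.116 without sg2 replicate 2. Among the higher members was MDM2, the ligase that degrades p53, at 27.0 and 27.2 against 30.1 and 29.7 FPKM (0.14, limma adjusted p = 0.414).

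Sterol, stress and interferon lists were near 0 with sg2. The 14 cholesterol genes had a median of 0.0008 (0.0807 without sgNTG replicate 2, and 0.158 with sg1), with HMGCS1, which makes the HMG-CoA from which sterols are built, at 14.8 and 16.3 against 19.96 and 18.8 FPKM (0.30, limma adjusted p = 0.370) and the sterol sensor INSIG1 at 19.1 and 20.9 against 20.6 and 20.2, with overlap. The ATF4 list had a median of 0.0118 over 15 genes, in which CTH, the last enzyme of cysteine synthesis from methionine, read 58.5 and 59.5 with sgNTG, 67.8 and 65.5 with sg2 and 49.4 and 49.1 with sg1 (0.17, limma adjusted p = 0.310; 0.0133 between the guides). The 11 interferon-stimulated genes had a median of -0.0152 and none under an unadjusted p of 0.05. The 4 hypoxia genes tested had none either.

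**Figure D5:**
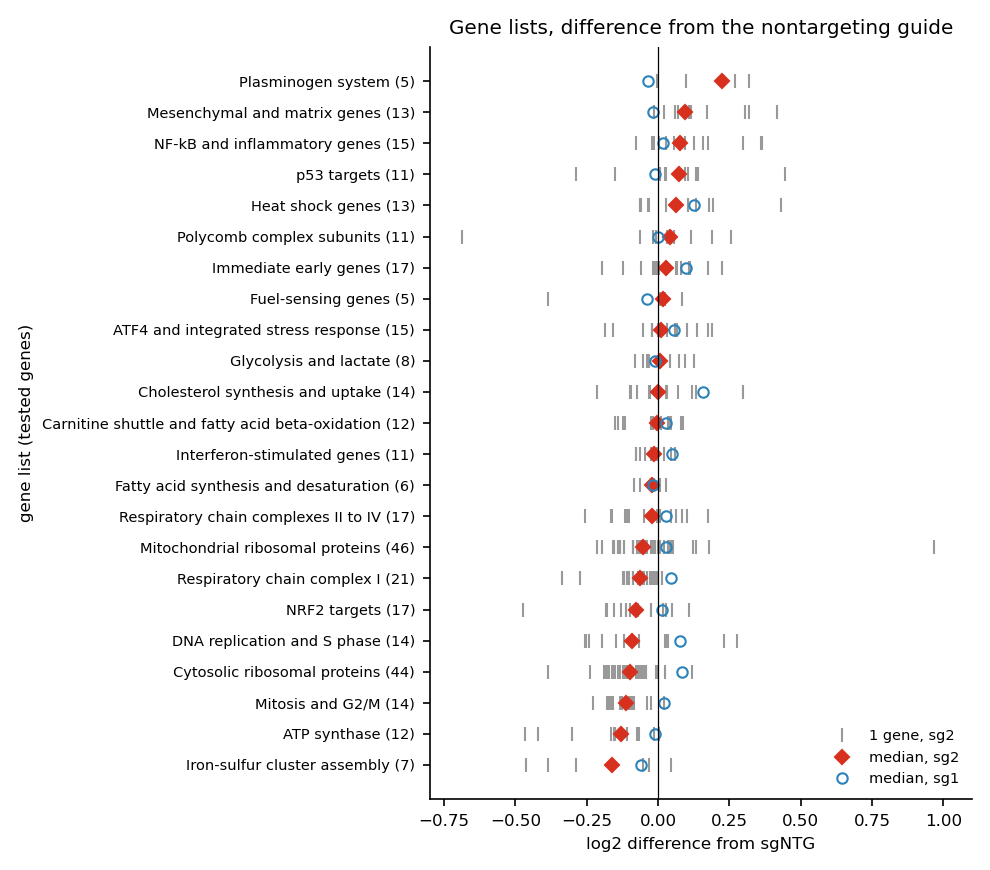
Each grey tick is the log2 difference of 1 tested gene, sg2 minus sgNTG, by gene list; red diamonds are the list medians with sg2 and open blue circles with sg1, for the 23 lists with at least 5 tested genes (number in brackets). The ribosomal protein and S phase medians lie below 0 with sg2 and above 0 with sg1, and the plasminogen and matrix medians above 0 with sg2 and just below with sg1.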

How the data were processed

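Per the labels' protocols, RNA was taken up in TRIzol and libraries were prepared from bead-captured mRNA. STAR, StringTie and build hg38 are named per the submitters' processing notes, and the sources used here give no versions, annotation or strand setting. The authors deposited 1 table of FPKM per gene and library, normalized for transcript length and mapped fragments, and its 6 columns matched the 6 samples by name. Of its 52807 rows (51447 names), 20 were exact repeats and were dropped. All 37 mitochondrial genes stood at 0 throughout, so a 0 was not read as absence.

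Values were taken as log2(FPKM + 1), which understates differences of low genes. The 8887 genes averaging 1 FPKM or more over 6 libraries were fitted with limma 3.58.1 in R 4.3.3 (lmFit, eBayes with a variance trend, 1 mean per group over all 6 libraries, no block), two-sided, with Benjamini-Hochberg adjustment over all tested genes at 0.05. The fit had 3 residual and 3.35 prior degrees of freedom and was tested on simulated data. Comparisons of sg1 and of sg2 with sgNTG share the sgNTG libraries, and differences between guides were tested as sg2 against sg1. GENCODE 29 (hg38) matched 8657 tested genes (97.41%) and gave types, positions, lengths and exon overlap. Promoters came from RefSeq (GRCh38.p14). Of 19951 protein-coding genes, 13053 were in the table used here, and others were not analysed here.

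The genes and lists were chosen with earlier results of these data known, and list counts are descriptions without a test. Named genes were those past the threshold with same-strand overlapping genes, the 12 of lowest p in each direction, the 3 of largest difference in each direction at 10 FPKM or more without overlap between groups, and up to 4 non-overlapping members of each list by p. Genes outside this rule were named after their values were seen. Some named genes and sequences are not reported here.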

Additional observations from a re-analysis of the deposited data

Results flagged for a closer look

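Of the 105 named genes, 22 had a difference from the nontargeting guide that itself differed between the 2 CPT1 guides, by limma's test of sg2 against sg1 over all tested genes (adjusted p from 0.00645 to 0.0497). They were 8 genes with higher and 14 with lower levels under sg2, and in 20 of them the guides' mean differences from sgNTG had opposite signs. Over all tested genes, 46 (0.518%) were higher and 69 (0.776%) lower with sg2 than with sg1. The named genes were chosen by their sg2 values, which also enter this contrast, so the choice itself can raise both counts among them.

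On the log2(FPKM + 1) scale, sg2 minus sg1, the genes higher with sg2 were TFPI2 (0.42), CEMIP (0.71), STC1 (0.48), PAEP (0.76), PLAT (0.64), CTH (0.43), BIRC3 (0.54) and PDK4 (0.27). Of the secreted protein genes among them, TFPI2, STC1, PAEP, CEMIP and PLAT all had sg1 below and sg2 above both sgNTG libraries. The genes lower with sg2 were TXNIP (-0.40), BOLA3 (-0.32), PCNA (-0.30), FAM210B (-0.46), AKR1B10 (-0.42), EPHX1 (-0.42) and KRT19 (-0.30), and ENSG00000285976 (-1.96), which shares exons with PTP4A1. KRT19, an epithelial keratin, read 155 and 154 FPKM with sgNTG, 143 and 140.5 with sg2 and 179 and 169 with sg1.

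The ribosomal protein genes RPL23A (-0.29), RPL41 (-0.22), RPS21 (-0.34) and RPL14 (-0.18) and the pseudogenes ENSG00000241494 (-0.54) and ENSG00000218227 (-0.56) were lower with sg2 as well. Transcript length moved with the same contrast, since short protein-coding genes had a median difference below 0 with sg2 and above 0 with sg1; its part in these differences was not tested.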

How the results depend on the processing

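All 105 named genes kept the sign of their difference under each of the 18 alternative settings in which they were tested, and so did the medians of 19 of the 25 lists. For the genes this was largely fixed in advance, because their sg2 and sgNTG libraries did not overlap. Leaving out a library or changing the pseudocount could then not reverse a sign, and settings that change only the variance leave the difference as it is. The calls were not firm. With a pseudocount of 0.1 both calls stood, and with a filter of 5 FPKM both stood beside 273 genes higher at an unadjusted p under 0.05 and 1126 higher and 1059 lower without overlap. With no filter on low values, 0 genes were called higher and 0 lower, with 1111 and 877 at an unadjusted p under 0.05 and 4869 and 3739 without overlap. Counts called were also 0 higher and 0 lower with only the 4 libraries compared (439 and 400 at an unadjusted p under 0.05), with no variance trend (442 and 331), robust limma (442 and 421), median-of-ratios scaling (410 and 471), quantile normalization (436 and 408), a replicate block (429 and 403), and a replicate block with GC and length trends removed (412 and 402). They were 0 and 0 too without genes that share at least 50% of their exonic bases (433 and 412), a setting chosen after seeing the data, where RN7SL2 had a limma adjusted p of 0.0509. With GC and length trends removed, 2 were higher and 2 lower, TFPI2 (limma adjusted p = 0.0435) and TXNIP (0.0484) joining RN7SL2 and ENSG00000285976.

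Leaving out each library in turn gave 0 to 2 genes higher and 0 to 3 lower, 294 to 441 higher and 312 to 399 lower at an unadjusted p under 0.05, and 1985 to 3503 higher and 1666 to 3103 lower without overlap, where a single library on a side overlaps less often by construction. No gene was called when sgNTG replicate 1 or either sg1 library was left out. Without sgNTG replicate 2, which leaves the lone sgNTG library assumed to vary like the other groups, the genes called were BEST1, FTH1 and RCN1P2, and without sg2 replicate 1 RPL17-C18orf32, AGAP2-AS1 and ENSG00000286070 were called beside RN7SL2 and ENSG00000285976. Across genes, same-numbered libraries hardly deviated together (correlations of deviations from group means of 0.0343, -0.0276 and 0.0603). Such correlations cannot show if the numbers pair the libraries by culture or handling. With the replicate block 0 genes were called each way. The cause of each lost call was not tested. Of 450 list medians under these alternatives, 48 moved by more than the spread between replicates. Scaling moved the median of all genes by less than 0.02 on the log2 scale, and the share of genes above 0 was 49.4% with median-of-ratios scaling and 50.1% with quantile normalization, beside 52.4% as reported. Absolute depth is unknown, and 2 libraries a side limit every comparison.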

Other observations

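Single libraries stood apart within a group for some overlapping or neighbouring genes. FTH1 read 837 and 523 FPKM in the 2 sgNTG libraries, 485 and 468 with sg2 and 517 and 511 with sg1, and BEST1, its neighbour on chromosome 11, ran the other way at 41.8 and 109 FPKM with sgNTG, 127 and 122 with sg2 and 106 and 118 with sg1. ENSG00000286070, a gene without a GENCODE 29 match, read 0.0313 and 0.117 FPKM with sgNTG, 1.94 and 7.73 with sg2 and 0.102 and 0.127 with sg1. Only the sg2 libraries brought it past the filter of a mean of 1 FPKM. MRPL42, the mitochondrial ribosomal protein gene farthest above 0, read 7.05 and 7.7 FPKM with sgNTG, 19.6 and 12 with sg2 and 5.57 and 20.04 with sg1, where the sg1 libraries alone spanned more than the sg2 difference. These 4 genes were chosen after their values were seen.

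By gene type, pseudogenes and long noncoding RNAs lay on opposite sides. Of 1027 tested pseudogenes, 293 (28.5%) were lower and 146 (14.2%) higher with sg2 without overlap, with a median of -0.0448 (0.0378 with sg1). Of 698 long noncoding RNAs, 101 (14.5%) were lower and 186 (26.6%) higher, with a median of 0.0473 (0.0073 with sg1). Over all tested genes the shares were 18.7% lower and 22.3% higher.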
